A study of Mus musculus with 8 samples.

Results

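The genes described here encode the enzymes of the lysosome, the acidic compartment in which cells degrade proteins, sugars and lipids, together with membrane proteins and sorting factors of the same organelle. They are 46 of the 23366 gene symbols in the count table, chosen by name: 13 proteases, 12 glycosidases, 4 sulfatases, 6 lipid enzymes and lipid carriers, 8 membrane proteins, and 3 genes of enzyme sorting and other function. All 46 were in the table. The RNA came from MEFs, fibroblasts grown out of mouse embryos, on a C57BL/6 background at low passage. The 4 groups of 2 libraries were cells labelled kdm3a KO (knockout of a histone H3K9 demethylase gene) kept 12 h without glucose, the same genotype fed (0 h), WT cells kept 12 h without glucose, and WT cells fed (0 h). Fed cells grew in DMEM with 10% FBS, whereas starved cells were in DMEM lacking glucose with 10% dialyzed FBS, so starvation below means lost glucose, dialyzed serum and 12 h of time together. The labels do not say how the knockout was made or whether replicates are separate cultures, and the spread behind each p-value is that between libraries and may be technical.

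As background, lysosomal hydrolases are made in the endoplasmic reticulum, most are tagged with mannose 6-phosphate in the Golgi, and receptors carry them to the lysosome, where low pH activates them. Cathepsins cut proteins, glycosidases and sulfatases take apart glycoproteins, glycosaminoglycans and glycolipids one residue at a time, and lipid enzymes work with carrier proteins that lift lipids out of membranes. Autophagy delivers the cell's own material to this compartment, and the transcription factors TFEB and TFE3 are known to induce many of these genes when nutrients are short.

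Total counts, with 1 row kept per gene, ran from 38407520 to 53602289 per library. Kdm3a itself was not lost at the RNA level in fed cells, where it stood at 55.2 and 55.4 CPM in fed KO-labelled libraries, against 56.1 and 56.4 CPM in fed WT libraries (log2 fold change -0.024 ± 0.043, adjusted p = 0.619). After starvation it stood at 65.4 and 66.7 CPM in starved KO-labelled libraries, against 176 and 185 CPM in starved WT libraries. Counts over a whole transcript cannot show a deleted exon, so these cells are called KO-labelled and each direction between genotypes rests on that label. The genotypes also differed in sex-linked RNA. Xist had 869 to 1369.9 CPM in KO-labelled and 0.939 to 1.54 CPM in WT libraries (its reads could include the antisense gene Tsix), and 4 Y-linked genes had 0 to 2 counts per KO-labelled library and 296 to 1251 per WT library. Genotype and sex of the cells cannot be told apart, and 3 of the 46 genes (Gla, Ids and Lamp2) are X-linked. Of the 12 fibroblast markers all were tested, with summed levels of 13256 to 13385 CPM in starved and 11592 to 11622 CPM in fed KO-labelled libraries, and 20276 to 21278 CPM in starved and 20279 to 20846 CPM in fed WT libraries. Vim and Fn1, and in fed WT libraries also Col1a1 and Col1a2, made up much of these sums, and single markers differed. Vim was at 11396 and 11322 CPM in starved WT, against 4400 and 4395 CPM in fed WT libraries. Fn1 was at 7575 and 8597 CPM in starved WT, against 3663 and 3450 CPM in fed WT libraries. Col1a2 was at 36.2 and 36.4 CPM in starved KO-labelled, 267 and 261 CPM in fed KO-labelled, 353 and 381 CPM in starved WT and 6199.9 and 6019.7 CPM in fed WT libraries. Col1a1 was at 240.4 and 255 CPM in starved WT, against 4752 and 4572 CPM in fed WT libraries. Thy1 was at 5.88 and 6.62 CPM in fed KO-labelled, against 99.3 and 103 CPM in fed WT libraries. Col1a1, Col1a2, Pdgfrb and Vim were also lower in fed KO-labelled than in fed WT libraries. Others were higher there. Dcn was at 52.2 and 50.6 CPM, against 2.57 and 2.25 CPM, and Pdgfra at 97.1 and 97.8 CPM, against 29.4 and 31.9 CPM. Col3a1, Fn1 and S100a4 were higher too. Lum was at 1.73 and 2.92 CPM in fed KO-labelled and at most 0.0463 CPM in WT libraries. The 15 macrophage markers, from a cell type known for high lysosomal gene expression, summed to at most 19.98 CPM in any library, led by Cd14 and, in starved KO-labelled libraries, also by Csf1r, and 7 of them (Ptprc, Emr1, Tyrobp, Cd53, C1qa, C1qb and C1qc) were at 0 in all 8 libraries. Endothelial markers summed to 53.2 to 55.5 CPM in starved WT, against 2.7 to 2.76 CPM in fed WT libraries. That sum was almost wholly Kdr, and Tie1 and Emcn were at 0 throughout. In bulk RNA, fewer cells of a type and less RNA per cell cannot be told apart.

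Together the 46 genes took 1.38 and 1.37% of counts in the starved KO-labelled libraries, against 1.02 and 1.02% in the fed ones. In WT cells they took 1.12 and 1.1% when starved, against 0.726 and 0.731% when fed. In both genotypes the starved libraries thus gave lysosomal genes a larger share, and KO-labelled libraries a larger share than WT libraries in the same medium. The 95% Wilson interval of each share was at most 0.0067 percentage points wide and covers counting error only. Proteases took 0.508 and 0.506% in starved KO-labelled libraries and 0.355 and 0.356% in starved WT libraries. Membrane proteins went the other way, with 0.305 and 0.303% in starved KO-labelled and 0.435 and 0.417% in starved WT libraries. A few abundant genes set these sums, so the counts of genes below need not follow them.

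**Figure D1:**
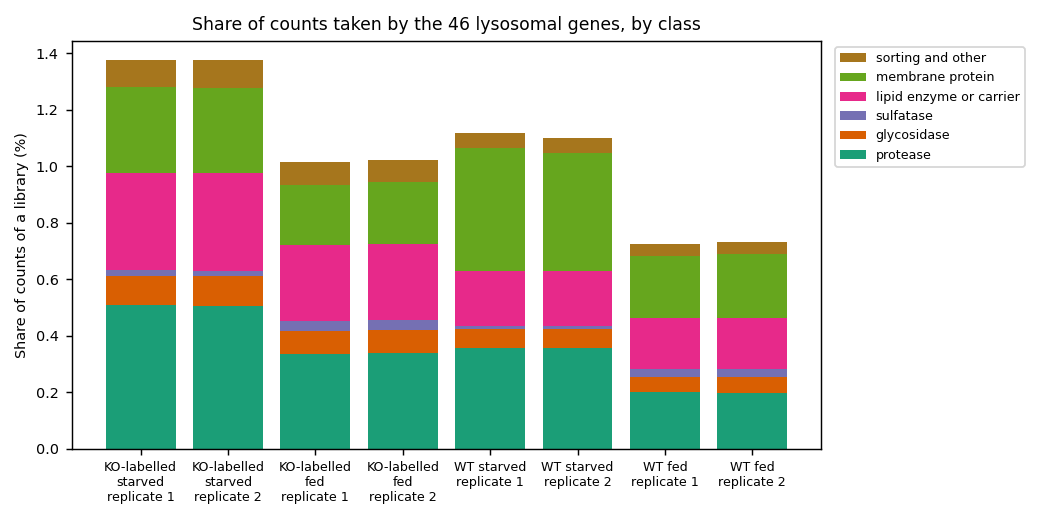
Share of all counts (y axis, percent) taken by the 46 lysosomal genes in each of the 8 libraries, stacked by class. The total is 1.38 and 1.37% in starved KO-labelled, 1.02 and 1.02% in fed KO-labelled, 1.12 and 1.1% in starved WT and 0.726 and 0.731% in fed WT libraries.

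Per kilobase of transcript in fed WT cells, the most abundant members were the tetraspanin Cd63 (499 CPM per kb), Lamp1, a glycoprotein that lines the lysosomal membrane (469), Psap, the precursor of the saposins that present sphingolipids to enzymes (406), and the proteases Ctsd (199) and Ctsb (156). At the other end were Ctsk, the collagen-degrading cathepsin of bone-resorbing cells (0.296 CPM per kb), and Ctsc, which activates serine proteases of immune cells (0.244). Ctss, a cathepsin of antigen-presenting cells, had 0 to 2 counts per library and was the only member not tested. Levels thus spanned a wide range, as the plot of levels by library shows, and Ctsc, Ctsk and Ctso were the only tested members with under 10 counts in some library.

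**Figure D2:**
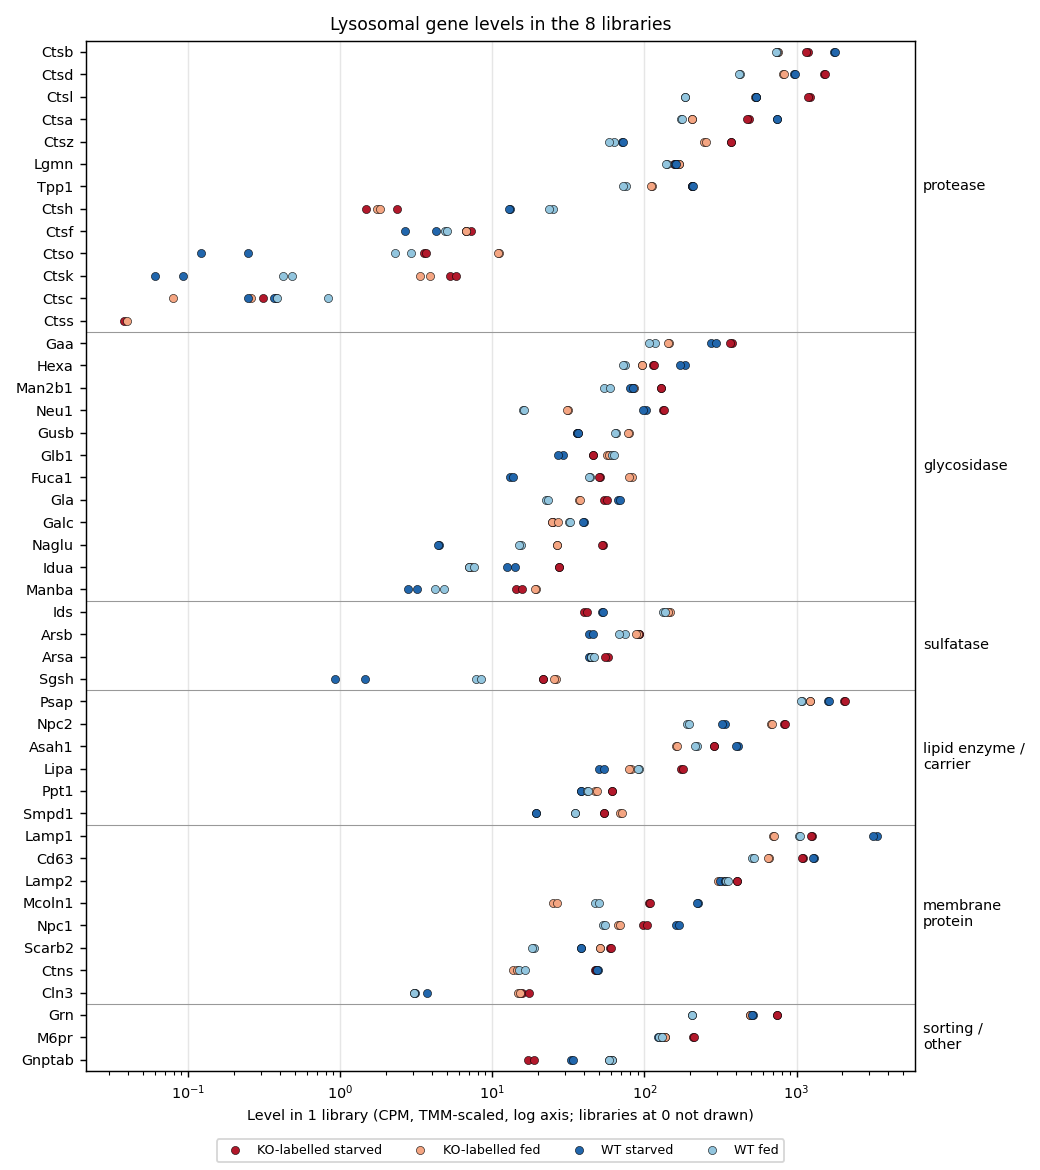
Level of each gene in each of the 8 libraries (x axis, CPM on a log scale; y axis, genes grouped by class and sorted by mean level), with 1 point per library coloured by group; libraries at 0 are not drawn. The 2 libraries of a group lie close together for most genes, and spread mainly where counts are low, as for Ctsc and Ctsk.

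The first comparison asked how these genes differed in each genotype after 12 h without glucose. In KO-labelled cells 29 of the 45 tested members rose (64.4%, against 39.4% of all 14418 genes tested) and 10 fell (22.2%, against 40.3% of all genes), at an adjusted p under 0.05, where 79.7% of all genes were called in either direction. In WT cells 24 rose (53.3%, against 36.7% of all genes) and 17 fell (37.8%, against 44.8%), where 81.6% of all genes were called. The median log2 fold change of members was 0.56 in KO-labelled cells, where all tested genes had a median of -0.017, and 0.23 in WT cells, where all tested genes had a median of -0.17. By more than 2-fold, 8 rose and 4 fell in KO-labelled cells (13.2% and 20% of all genes), and 16 rose and 7 fell in WT cells (15% and 27.4% of all genes). Scaling by library totals in place of TMM moved the median of all genes to -0.27 in KO-labelled and -0.63 in WT cells. On that scale 23 members rose and 12 fell in KO-labelled cells, and 20 rose and 23 fell in WT cells, with member medians of 0.31 and -0.22, so the direction of the WT median depends on the scaling while members stay above all genes on either. With library totals 4261 of all 14418 genes rose and 7242 fell in KO-labelled cells, and 3397 rose and 8629 fell in WT cells. Of the 45, 22 (48.9%) rose in both genotypes and 9 (20%) fell in both, against 28.2% and 30.2% of all genes; these pairs of comparisons share no library.

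**Figure D3:**
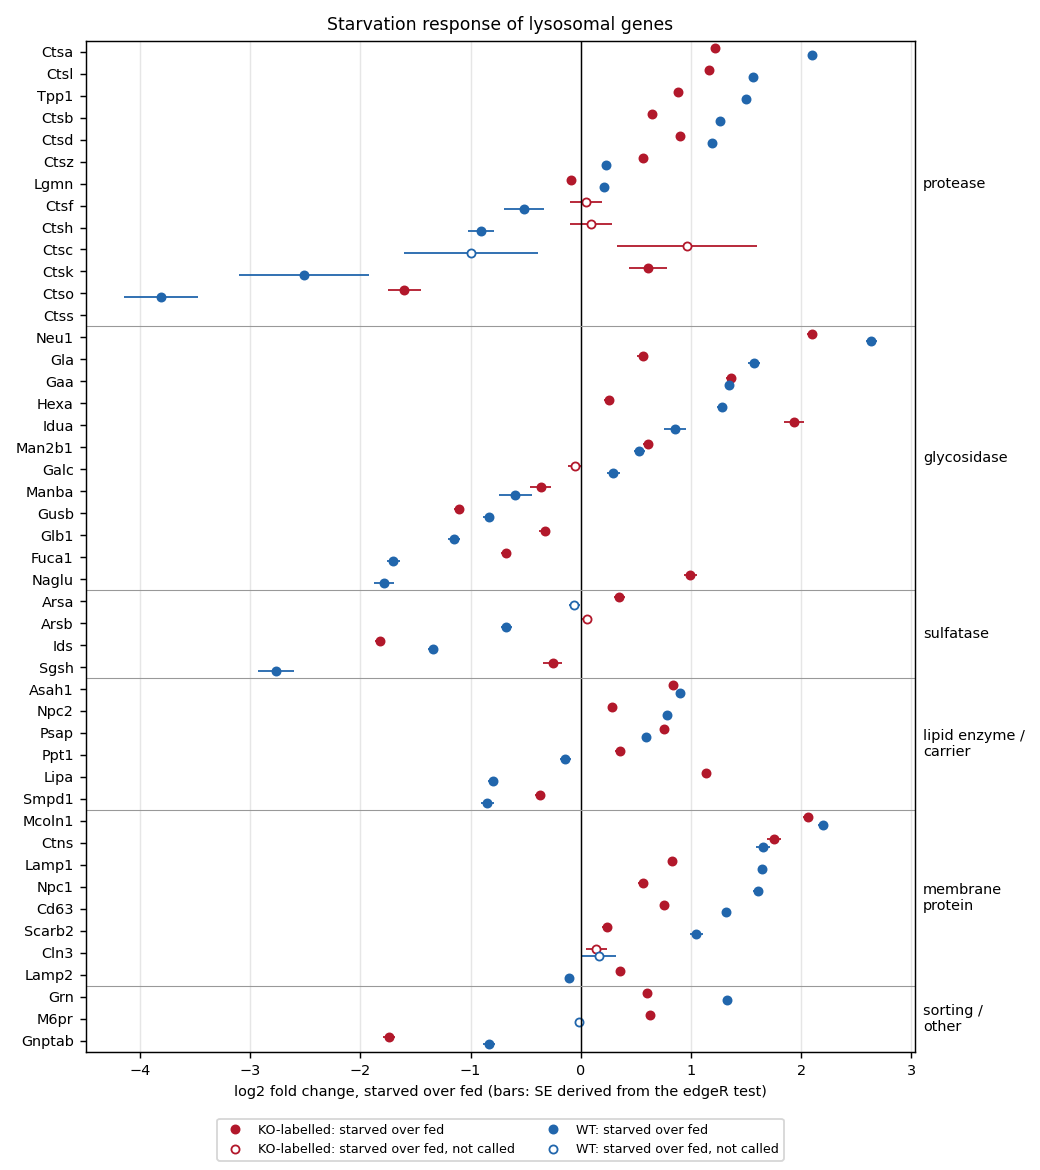
Starvation response of each gene (x axis, log2 fold change, starved over fed, with the standard error derived from the test) in KO-labelled (red) and WT cells (blue), grouped by class; open points did not pass an adjusted p of 0.05. The 8 membrane proteins lie at or above 0 except Lamp2 in WT, the 4 sulfatases lie below 0 in WT, and Naglu, Lipa and Ctsk lie on opposite sides in the 2 genotypes. Ctsk had 3 and 2 counts in starved WT libraries.

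Most membrane proteins rose. In KO-labelled cells 7 of 8 rose and none fell (6 with library totals), and in WT cells 6 of 8 rose and 1 fell on either scaling. Of all genes tested, 39.4% rose and 40.3% fell in KO-labelled cells, and 36.7% rose and 44.8% fell in WT cells. Mcoln1, the channel that releases calcium from the lysosome, was at 107 and 109 CPM in starved KO-labelled libraries, against 25.2 and 26.5 CPM in fed ones, and at 225 and 222 CPM in starved WT libraries, against 47.2 and 50.4 CPM in fed ones. The starved libraries were the highest in each genotype, with log2 fold changes of 2.06 ± 0.045 in KO-labelled and 2.20 ± 0.043 in WT cells. Ctns, which exports cystine from the lysosome, was at 47.6 and 47.6 CPM in starved KO-labelled libraries, against 13.7 and 14.6 CPM in fed ones, and at 49.1 and 49.1 CPM in starved WT libraries, against 14.9 and 16.3 CPM in fed ones. Its fold changes were 1.75 ± 0.063 in KO-labelled and 1.65 ± 0.066 in WT cells, and their difference did not pass (0.096 ± 0.092, adjusted p = 0.375), although it did with library totals (0.30).

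Lamp1 was at 1257 and 1236 CPM in starved KO-labelled libraries, against 697 and 706 CPM in fed ones, and at 3380.2 and 3169 CPM in starved WT libraries, against 1037 and 1054 CPM in fed ones. The starved WT libraries stood well above the other 6, and the response was 0.83 ± 0.028 in KO-labelled and 1.65 ± 0.028 in WT cells. Its partner Lamp2, which is also needed for fusion of autophagosomes with lysosomes, was at 406 and 404 CPM in starved KO-labelled libraries, against 304 and 329.8 CPM in fed ones, and at 314 and 336 CPM in starved WT libraries, against 344 and 355 CPM in fed ones. On starvation Lamp2 rose in KO-labelled cells (0.35 ± 0.037). In WT cells it was called lower by a small amount (-0.10 ± 0.038, adjusted p = 0.0166), and that call was lost with DESeq2 size factors (-0.039), with only the WT libraries in the fit (-0.03), with summed isoform rows (0.031), and without starved WT replicate 1 (0.019) or 2 (-0.075) or fed WT replicate 2 (-0.081). These levels are those of the transcript row kept for Lamp2. Its other row went the other way in WT, at 250 and 255 CPM in starved libraries, against 216 and 222 CPM in fed ones. Npc1 and Cd63 rose in both genotypes, by 0.57 ± 0.042 and 0.75 ± 0.026 in KO-labelled and by 1.61 ± 0.044 and 1.32 ± 0.027 in WT cells. Npc1 moves cholesterol out of the lysosome. Scarb2, the receptor that delivers glucocerebrosidase, rose by 0.24 ± 0.048 in KO-labelled cells (-0.018 and not called with library totals) and 1.05 ± 0.057 in WT cells. Cln3, a membrane protein lost in juvenile Batten disease, did not pass in either genotype (0.14 ± 0.096 in KO-labelled and 0.16 ± 0.15 in WT cells).

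Among proteases, 7 of 12 tested rose and 2 fell in KO-labelled cells (6 and 2 with library totals), and 7 rose and 4 fell in WT cells (5 and 7 with library totals). The shares of all genes were 39.4% and 40.3% in KO-labelled cells, and 36.7% and 44.8% in WT cells. With library totals, 4261 of all 14418 genes rose and 7242 fell in KO-labelled cells, and 3397 rose and 8629 fell in WT cells. The abundant cathepsins rose. Ctsa, which both trims peptides and holds the sialidase Neu1 in a protective complex, was at 484 and 475 CPM in starved KO-labelled libraries, against 204 and 207 CPM in fed ones, and at 746 and 749 CPM in starved WT libraries, against 173 and 176 CPM in fed ones. All starved libraries were above all fed ones, with log2 fold changes of 1.22 ± 0.028 in KO-labelled and 2.10 ± 0.029 in WT cells. Ctsl, a broad endopeptidase, was at 1220.5 and 1196 CPM in starved KO-labelled libraries, against 536 and 541 CPM in fed ones, and at 539.9 and 545 CPM in starved WT libraries, against 183 and 184 CPM in fed ones. Its response was 1.16 ± 0.026 in KO-labelled and 1.56 ± 0.027 in WT cells, and fed KO-labelled libraries already reached the level of starved WT ones. Ctsd, the main aspartic protease, rose by 0.90 ± 0.025 in KO-labelled and 1.19 ± 0.025 in WT cells. Ctsb, the most counted of them, rose by 0.65 ± 0.024 in KO-labelled and 1.26 ± 0.024 in WT cells. Tpp1, a tripeptidyl peptidase, was at 206 and 205 CPM in starved KO-labelled libraries, against 112 and 111 CPM in fed ones, and at 207 and 209 CPM in starved WT libraries, against 75.1 and 72.1 CPM in fed ones, and rose in each genotype.

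Of the scarce cathepsins, Ctso fell in both genotypes, and Ctsk rose in KO-labelled and fell in WT cells. Ctso, a little studied cysteine cathepsin, was at 3.55 and 3.67 CPM in starved KO-labelled libraries, against 11 and 10.9 CPM in fed ones, and at 0.246 and 0.121 CPM in starved WT libraries, against 2.92 and 2.27 CPM in fed ones. It was lowest in starved WT, where 8 and 4 counts remained, and fell by 1.60 ± 0.15 in KO-labelled and by 3.81 ± 0.33 in WT cells on the log2 scale. Ctsk had 3 and 2 counts in starved and 18 and 20 in fed WT libraries, a ratio of 0.17 (95% Clopper-Pearson interval 0.0524 to 0.434, which covers counting error only). Its KO-labelled value was 0.61 ± 0.17. In WT cells Ctso, Ctsk and Ctsc passed the filter on low counts through fed or KO-labelled libraries and not through starved ones, so their place among the tested genes is no independent sign of a fall. Ctsh, an aminopeptidase, fell in WT (-0.90 ± 0.12) and did not pass in KO-labelled cells (0.092 ± 0.19, adjusted p = 0.667), where it was already low. Ctsf fell in WT by 0.51 ± 0.18, but this call was lost without starved WT replicate 1 (-0.15, adjusted p = 0.458). Ctsz, a carboxypeptidase, rose by 0.56 ± 0.033 in KO-labelled and 0.23 ± 0.04 in WT cells, and the WT value became -0.22 with library totals. Ctsc did not pass in either genotype (0.96 ± 0.64 in KO-labelled and -0.99 ± 0.61 in WT cells).

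Glycosidases were split. In KO-labelled cells 7 of 12 rose and 4 fell (6 and 5 with library totals), and in WT cells 7 rose and 5 fell (5 and 6 with library totals). The shares of all genes were 39.4% and 40.3% in KO-labelled cells, and 36.7% and 44.8% in WT cells. With library totals, 4261 of all 14418 genes rose and 7242 fell in KO-labelled cells, and 3397 rose and 8629 fell in WT cells. Neu1, the lysosomal sialidase, had the largest rise of all members in both genotypes and was at 133 and 134 CPM in starved KO-labelled libraries, against 31.5 and 30.8 CPM in fed ones, and at 102 and 98 CPM in starved WT libraries, against 16 and 16.1 CPM in fed ones. That is 2.10 ± 0.043 in KO-labelled and 2.64 ± 0.05 in WT cells on the log2 scale. Its complex partner Glb1, the beta-galactosidase used as a marker of senescent cells, went down instead, at 45.8 and 45.7 CPM in starved KO-labelled libraries, against 56.6 and 58.3 CPM in fed ones, and at 29 and 26.9 CPM in starved WT libraries, against 60.7 and 63.1 CPM in fed ones. The falls were -0.33 ± 0.049 in KO-labelled and -1.15 ± 0.054 in WT cells. Thus of the genes of 1 enzyme complex, Ctsa and Neu1 rose and Glb1 fell in each genotype. Glb1 shares exon bases with Tmppe, so reads of the 2 genes may mix.

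Gaa, which breaks down glycogen in the lysosome, was at 375 and 366 CPM in starved KO-labelled libraries, against 146 and 143 CPM in fed ones, and at 274 and 295 CPM in starved WT libraries, against 117 and 107 CPM in fed ones. Starved libraries were above fed ones throughout, with 1.36 ± 0.04 in KO-labelled and 1.35 ± 0.042 in WT cells. Idua, which removes iduronic acid from glycosaminoglycans, was at 27.2 and 27.4 CPM in starved KO-labelled libraries, against 7.07 and 7.22 CPM in fed ones, and at 12.5 and 14 CPM in starved WT libraries, against 7.06 and 7.54 CPM in fed ones. Its fold changes were 1.94 ± 0.09 in KO-labelled and 0.86 ± 0.1 in WT cells, with the caution that its exons overlap those of Dgkq and Slc26a1. Gla, the X-linked alpha-galactosidase that acts on globotriaosylceramide, rose by 0.56 ± 0.05 in KO-labelled and 1.57 ± 0.055 in WT cells. Hexa, the alpha subunit of hexosaminidase, rose by 0.25 ± 0.039 in KO-labelled cells (-0.0031 and not called with library totals) and 1.28 ± 0.041 in WT cells. Man2b1, an alpha-mannosidase, rose by 0.61 ± 0.044 in KO-labelled and 0.53 ± 0.048 in WT cells, and the WT rise was not called with library totals (0.074).

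Fuca1, an alpha-fucosidase, was at 51.1 and 49.9 CPM in starved KO-labelled libraries, against 82.5 and 78.9 CPM in fed ones, and at 13 and 13.7 CPM in starved WT libraries, against 43.5 and 43.2 CPM in fed ones. It was lowest in starved WT and fell by 0.68 ± 0.047 in KO-labelled and 1.70 ± 0.061 in WT cells on the log2 scale. Gusb, the beta-glucuronidase, and Manba, the beta-mannosidase, also fell in both, with values of -1.10 ± 0.045 and -0.36 ± 0.093 in KO-labelled and -0.83 ± 0.048 and -0.59 ± 0.15 in WT cells. Galc, which degrades galactosylceramide, rose in WT (0.30 ± 0.062, but -0.16 with library totals) and did not pass in KO-labelled cells (-0.054 ± 0.062).

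Sulfatases, which act on sulfated sugars and sulfatide, were the class without a rise in WT cells: 3 of 4 fell there and 2 of 4 fell in KO-labelled cells, with 1 higher (4 and 3 fell and none rose with library totals). Of all genes, 44.8% fell in WT and 40.3% in KO-labelled cells. With library totals, 8629 and 7242 of all 14418 genes fell. A class of 4 genes is too small to set its counts apart from these shares. Ids, the X-linked iduronate sulfatase, was at 39.9 and 42 CPM in starved KO-labelled libraries, against 146 and 143 CPM in fed ones, and at 52.4 and 53.4 CPM in starved WT libraries, against 132 and 136 CPM in fed ones. All fed libraries stood well above all starved ones, with -1.82 ± 0.042 in KO-labelled and -1.34 ± 0.043 in WT cells. Sgsh, heparan sulfamidase, was at 21.7 and 21.5 CPM in starved KO-labelled libraries, against 26 and 25.5 CPM in fed ones, and at 0.921 and 1.45 CPM in starved WT libraries, against 7.8 and 8.4 CPM in fed ones. The WT fall to 30 and 48 counts gave -2.76 ± 0.16, whereas the KO-labelled value was -0.25 ± 0.083 and was not called without fed replicate 1 (-0.24). Sgsh shares 839 exon bases with Card14 on the opposite strand, and strand use in the counting is not given, so its level is uncertain. Arsb, which acts on dermatan sulfate, was at 92.3 and 92 CPM in starved KO-labelled libraries, against 90.2 and 87.4 CPM in fed ones, and at 43 and 46.2 CPM in starved WT libraries, against 74.5 and 67.9 CPM in fed ones. It fell in WT (-0.67 ± 0.052) and did not pass in KO-labelled cells (0.054 ± 0.046, adjusted p = 0.291), and the 2 responses differed (0.73 ± 0.069). Arsa, arylsulfatase A, rose by 0.35 ± 0.049 in KO-labelled cells (0.093 and not called with library totals) and was at -0.058 ± 0.052 in WT cells.

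Of the enzymes that break down heparan sulfate among the members, Idua rose in both genotypes and Ids, Sgsh and Gusb fell in both. Naglu, which cleaves alpha-linked N-acetylglucosamine in that pathway, was at 53.5 and 52.9 CPM in starved KO-labelled libraries, against 26.7 and 26.7 CPM in fed ones, and at 4.42 and 4.39 CPM in starved WT libraries, against 15.4 and 15 CPM in fed ones. The 2 genotypes moved apart, with 0.99 ± 0.059 in KO-labelled and -1.79 ± 0.092 in WT cells.

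Among the 6 lipid enzymes and carriers, 5 rose and 1 fell in KO-labelled cells (3 and 1 with library totals), and 3 rose and 3 fell in WT cells on either scaling. The shares of all genes were 39.4% and 40.3% in KO-labelled cells, and 36.7% and 44.8% in WT cells. Asah1, acid ceramidase, was at 287 and 287 CPM in starved KO-labelled libraries, against 160.0 and 162 CPM in fed ones, and at 413 and 401 CPM in starved WT libraries, against 219.9 and 216 CPM in fed ones, with 0.83 ± 0.03 in KO-labelled and 0.90 ± 0.03 in WT cells. Psap was at 2063 and 2078 CPM in starved KO-labelled libraries, against 1228 and 1232 CPM in fed ones, and at 1612 and 1630.0 CPM in starved WT libraries, against 1081 and 1076 CPM in fed ones, with 0.75 ± 0.023 in KO-labelled and 0.59 ± 0.023 in WT cells. Starved libraries were above fed ones in each genotype for both genes. Lipa, the acid lipase that frees cholesterol and fatty acids from lipoprotein esters, was at 173 and 179.9 CPM in starved KO-labelled libraries, against 81.1 and 79.3 CPM in fed ones, and at 50.4 and 54.3 CPM in starved WT libraries, against 91.9 and 90.3 CPM in fed ones. Its level was thus highest in starved KO-labelled and lowest in starved WT libraries, with 1.14 ± 0.04 in KO-labelled and -0.80 ± 0.045 in WT cells. Smpd1, acid sphingomyelinase, was at 54 and 54 CPM in starved KO-labelled libraries, against 68.5 and 70.8 CPM in fed ones, and at 19.4 and 19.2 CPM in starved WT libraries, against 34.8 and 34.8 CPM in fed ones, falls of -0.37 ± 0.046 in KO-labelled and -0.85 ± 0.057 in WT cells. Npc2, the soluble partner of Npc1 in cholesterol export, rose by 0.28 ± 0.028 in KO-labelled (0.028 and not called with library totals) and 0.78 ± 0.03 in WT cells.

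Of the 3 remaining genes, Grn, the precursor of granulins with a role in lysosomal function, was at 749 and 740.3 CPM in starved KO-labelled libraries, against 492 and 492 CPM in fed ones, and at 517 and 511 CPM in starved WT libraries, against 205 and 206 CPM in fed ones, rises of 0.60 ± 0.026 in KO-labelled and 1.32 ± 0.027 in WT cells. Gnptab, the enzyme that makes the mannose 6-phosphate tag, was at 17.2 and 18.7 CPM in starved KO-labelled libraries, against 61.2 and 58.5 CPM in fed ones, and at 33 and 34.1 CPM in starved WT libraries, against 61.2 and 58.2 CPM in fed ones. Fed libraries of the 2 genotypes overlapped, with a difference that did not pass (0.0034 ± 0.052) but did with library totals (0.12), and the falls were -1.74 ± 0.058 in KO-labelled and -0.83 ± 0.057 in WT cells. M6pr, a receptor for that tag, was at 208 and 213 CPM in starved KO-labelled libraries, against 137 and 136 CPM in fed ones, and at 123 and 129 CPM in starved WT libraries, against 125 and 129.6 CPM in fed ones. It rose in KO-labelled cells (0.62 ± 0.035) and did not pass in WT cells (-0.016 ± 0.037, adjusted p = 0.697), where it was called lower with library totals (-0.47) and higher without starved WT replicate 1 (0.093). Among reads of Cd63 and M6pr, some may come from or be lost to the pseudogenes Cd63-ps and M6pr-ps.

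The difference between the 2 responses was tested directly. In 18 members the response of KO-labelled cells was higher than that of WT cells and in 19 it was lower (34.1% and 30.4% of all genes tested were called in these directions, 64.5% in either), and 8 did not pass. With library totals the counts were 24 and 16, where 6306 and 3099 of all 14418 genes were called in these directions. By class, the KO-labelled response was lower for 4 of 8 membrane proteins and higher for 1, and higher for 3 of 4 sulfatases and lower for 1. The abundant proteases Ctsa, Ctsb, Ctsd, Ctsl and Tpp1 had a smaller rise in KO-labelled cells, with differences of -0.88 ± 0.039, -0.62 ± 0.034, -0.29 ± 0.035, -0.40 ± 0.037 and -0.61 ± 0.049. Among called members, the largest positive differences were those of Ctsk (3.12 ± 0.61), Naglu (2.78 ± 0.11), Sgsh (2.51 ± 0.19), Ctso (2.21 ± 0.41), Lipa (1.94 ± 0.06) and Idua (1.08 ± 0.14). Since Ctsk and Ctso passed the filter on low counts through groups other than starved WT, their place in this ranking is no independent sign of a difference. The largest negative ones were those of Npc1 (-1.04 ± 0.06), Hexa (-1.03 ± 0.056) and Gla (-1.01 ± 0.074). Hexa was at 114 and 115 CPM in starved KO-labelled libraries, against 95.6 and 97 CPM in fed ones, and at 184 and 172 CPM in starved WT libraries, against 74.6 and 72.1 CPM in fed ones. Npc1 was at 98 and 103 CPM in starved KO-labelled libraries, against 67.2 and 68.9 CPM in fed ones, and at 161 and 169 CPM in starved WT libraries, against 53.2 and 55.2 CPM in fed ones. In both genes the starved WT libraries were the highest of the 8. Gaa (0.013 ± 0.057, adjusted p = 0.868), Man2b1 (0.079 ± 0.065, adjusted p = 0.297), Manba (0.23 ± 0.18), Cln3 (-0.023 ± 0.18), Ctns, Asah1 (-0.068 ± 0.043), Mcoln1 (-0.13 ± 0.062) and Ctsc were the 8 that did not pass, which does not show that they respond alike. Asah1 was called lower without starved WT replicate 1 (-0.17) or 2 (-0.22) and with DESeq2 size factors (-0.17), and higher with library totals (0.13). Mcoln1 was called lower without starved WT replicate 1 (-0.25) or 2 (-0.27) or fed WT replicate 2 (-0.17), and with DESeq2 size factors (-0.23). Ctsc (1.96 ± 0.88) was called higher without fed WT replicate 2 (2.42) or fed KO-labelled replicate 1 (3.08) and with library totals (2.16).

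Some members were called in opposite directions: Ctsk, Naglu, Ppt1, Lipa and Lamp2 rose in KO-labelled and fell in WT cells, and Lgmn fell in KO-labelled and rose in WT cells. Of all genes tested, 5.38% rose in KO-labelled and fell in WT cells and 4.21% did the reverse. Lipa and Naglu changed by large steps in each genotype. For Lamp2 the WT fall was that of the kept transcript row, while its other row was higher in starved than in fed WT libraries. Ppt1, which removes palmitate from proteins, was at 61.2 and 61.3 CPM in starved KO-labelled libraries, against 47 and 48.8 CPM in fed ones, and at 38 and 38.5 CPM in starved WT libraries, against 41.9 and 42.2 CPM in fed ones. Its KO-labelled rise of 0.36 ± 0.046 was not called with library totals (0.10). Its WT fall of 0.14 ± 0.051 on the log2 scale was not called with DESeq2 size factors (-0.074), or without starved WT replicate 1 (-0.056) or 2 (-0.07) or fed WT replicate 2 (-0.13). Lgmn, the asparaginyl endopeptidase legumain, was at 156 and 161 CPM in starved KO-labelled libraries, against 168 and 169 CPM in fed ones, and at 159 and 162 CPM in starved WT libraries, against 141 and 138 CPM in fed ones. Its KO-labelled value of -0.086 ± 0.033 was not called without fed replicate 1 (-0.087) or 2 (-0.073) or without starved replicate 1 (-0.055) of that genotype, and its WT value of 0.21 ± 0.035 became -0.25 with library totals. For Ctsk, the KO-labelled rise (0.61 ± 0.17) was not called with library totals (0.35) or without fed KO-labelled replicate 2 (0.51). Its WT fall rests on 3 and 2 counts in starved WT libraries, and Ctsk passed the filter on low counts through groups other than starved WT.

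**Figure D4:**
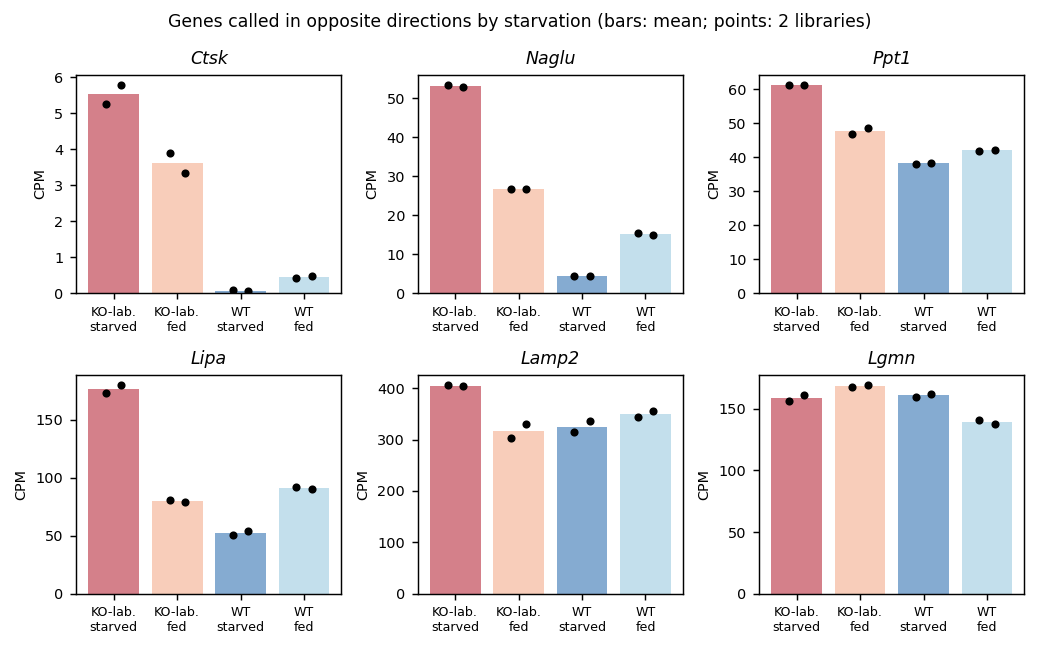
Levels (y axis, CPM from 0) of the 6 genes called in opposite directions by starvation in the 2 genotypes, with group means as bars and the 2 libraries as points. Naglu and Lipa are highest in starved KO-labelled libraries (53.5 and 52.9 CPM, and 173 and 179.9 CPM) and lowest in starved WT libraries (4.42 and 4.39 CPM, and 50.4 and 54.3 CPM), while Lamp2 and Lgmn differ by small amounts. Ctsk had 3 and 2 counts in starved WT libraries and passed the filter on low counts through other groups.

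Next, KO-labelled cells were compared with WT cells in the same medium. When fed, 31 of 45 members were higher in KO-labelled cells (68.9%, against 34.5% of all genes) and 9 were lower (20%, against 39.8%), where 74.4% of all genes were called in either direction. The median was 0.33, and -0.063 over all genes. When starved, 27 were higher (60%, against 41.9% of all genes) and 13 lower (28.9%, against 37.7%; 79.6% in either direction), with a median of 0.42, and 0.073 over all genes. With library totals the counts were 33 and 6 when fed and 32 and 10 when starved. Of all 14418 genes, that scaling called 5811 higher and 4737 lower when fed, and 7817 higher and 3778 lower when starved. By class, 9 of 12 proteases and 9 of 12 glycosidases were higher in fed KO-labelled cells. In starved cells membrane proteins were the class with more members lower (4) than higher (3), which turned to 3 and 5 with library totals.

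Of single genes when fed, Ctsk was at 3.89 and 3.34 CPM in fed KO-labelled libraries, against 0.417 and 0.479 CPM in fed WT libraries, a difference of 3.01 ± 0.26 on the log2 scale. The 6 osteoclast markers, from a cell type known for this gene, summed to 2.66 to 2.68 CPM in starved and 0.417 to 0.551 CPM in fed KO-labelled libraries. In WT they summed to 0.212 to 0.614 CPM in starved and 0.407 to 0.533 CPM in fed libraries. In starved KO-labelled libraries the sum was mostly Atp6v0d2 (2.37 and 1.80 CPM) and Oscar (0.155 and 0.737 CPM). Acp5, Calcr, Dcstamp and Ocstamp were at most 0.151 CPM there. The part of such cells in the Ctsk values was not tested. Ctso was at 11 and 10.9 CPM in fed KO-labelled libraries, against 2.92 and 2.27 CPM in fed WT libraries (2.07 ± 0.16). In both, all KO-labelled libraries were above all WT libraries, at low levels. Ctsz was at 248 and 253 CPM in fed KO-labelled libraries, against 63 and 58.7 CPM in fed WT libraries (2.04 ± 0.037). Manba was at 19.5 and 19 CPM in fed KO-labelled libraries, against 4.17 and 4.81 CPM in fed WT libraries (2.10 ± 0.11). Cln3 was at 14.8 and 15.2 CPM in fed KO-labelled libraries, against 3.06 and 3.04 CPM in fed WT libraries (2.30 ± 0.12). The groups did not overlap in these genes, although the exons of Cln3 overlap those of Apobr, whose row held more counts. Ctsh stood out in the other direction, at 1.73 and 1.81 CPM in fed KO-labelled libraries, against 25.1 and 23.4 CPM in fed WT libraries (-3.78 ± 0.14). Npc2 was at 682 and 685 CPM in fed KO-labelled libraries, against 191 and 196 CPM in fed WT libraries (1.82 ± 0.029). Grn was at 492 and 492 CPM in fed KO-labelled libraries, against 205 and 206 CPM in fed WT libraries (1.26 ± 0.027).

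When starved, Ctsk was at 5.25 and 5.78 CPM in starved KO-labelled libraries, against 0.0921 and 0.0606 CPM in starved WT libraries, a ratio of 72.7 with a 95% Clopper-Pearson interval of 30.9 to 225 that covers counting error only, with 3 and 2 counts in the WT libraries. Ctso was at 3.55 and 3.67 CPM in starved KO-labelled libraries, against 0.246 and 0.121 CPM in starved WT libraries (4.28 ± 0.31). Sgsh was at 21.7 and 21.5 CPM in starved KO-labelled libraries, against 0.921 and 1.45 CPM in starved WT libraries (4.18 ± 0.14). In all of these the KO-labelled libraries were higher. Ctsk and Ctso passed the filter on low counts through groups other than starved WT, so their place among the largest differences is no independent sign of a difference. Naglu was at 53.5 and 52.9 CPM in starved KO-labelled libraries, against 4.42 and 4.39 CPM in starved WT libraries (3.59 ± 0.081). Ctsz was at 368 and 371 CPM in starved KO-labelled libraries, against 70.9 and 72.3 CPM in starved WT libraries (2.37 ± 0.038). Ctsh remained lower, at 2.35 and 1.47 CPM in starved KO-labelled libraries, against 13.1 and 12.8 CPM in starved WT libraries (-2.78 ± 0.15). Lamp1 and Mcoln1 had levels in KO-labelled cells that fell short of WT by 1.39 ± 0.028 and 1.05 ± 0.04 on the log2 scale, and both were lower when fed too (-0.58 ± 0.028 and -0.92 ± 0.047). In both media, 22 members (48.9%) were higher in KO-labelled cells, against 23.8% of all genes, and 5 (11.1%) were lower, against 24.9%. The X-linked members did not move together: fed differences were 0.71 ± 0.055 for Gla, 0.11 ± 0.039 for Ids and -0.14 ± 0.037 for Lamp2. The Ids call was lost without fed KO-labelled replicate 1 (0.099) or fed WT replicate 1 (0.084), and the Lamp2 call without fed KO-labelled replicate 1 (-0.082), with library totals (-0.026) or with summed isoform rows (-0.035). The other transcript row of Lamp2 was higher in fed KO-labelled libraries (231 and 243 CPM) than in fed WT libraries (216 and 222 CPM).

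**Figure D5:**
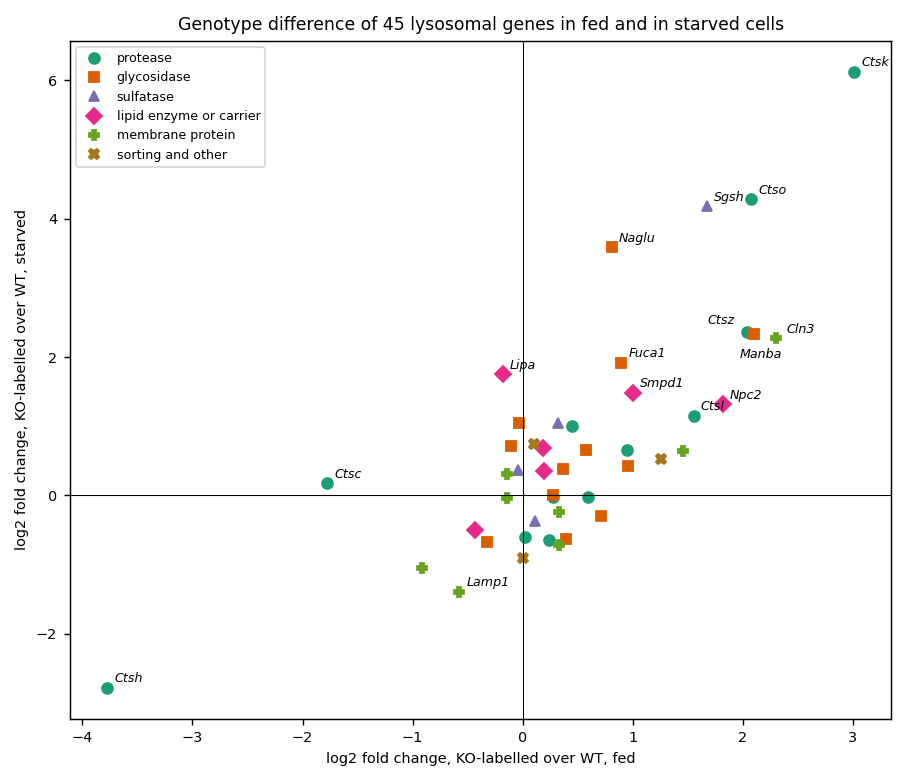
Genotype difference of each of 45 tested genes (log2 fold change, KO-labelled over WT) in fed cells (x axis) and in starved cells (y axis), with 1 symbol per class; the axes use different libraries. Ctsk, Ctso, Sgsh and Naglu lie far up (6.13, 4.28, 4.18 and 3.59 on the y axis), and Ctsh lies low on both axes (-3.78 and -2.78). Ctsk and Ctso had few counts in starved WT libraries and passed the filter on low counts through other groups.

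The transcription factors known to act on these genes were also measured. Tfe3 was at 108 and 107 CPM in starved KO-labelled libraries, against 80.5 and 77.6 CPM in fed ones, and at 115 and 114 CPM in starved WT libraries, against 104 and 94.5 CPM in fed ones, with 0.44 ± 0.043 in KO-labelled and 0.20 ± 0.044 in WT cells. Tfeb was at 2.33 and 2.82 CPM in starved KO-labelled libraries, against 14.3 and 15 CPM in fed ones, and at 7.92 and 8.66 CPM in starved WT libraries, against 20.8 and 21.1 CPM in fed ones, with -2.50 ± 0.12 in KO-labelled and -1.34 ± 0.1 in WT cells. The level of Tfeb RNA was thus lower in starved cells of both genotypes. Mitf was at 8.65 and 8.13 CPM in starved KO-labelled libraries, against 17.4 and 16.1 CPM in fed ones, and at 6.2 and 6.85 CPM in starved WT libraries, against 3.75 and 2.25 CPM in fed ones, lower on starvation in KO-labelled and higher in WT cells by the test. Tfec was at 0 counts in every library. Counts do not show whether a factor is in the nucleus, the step by which starvation is known to activate TFEB.

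TFEB and its relatives bind the E-box CACGTG, best within a longer element called CLEAR. Promoter sequences from RefSeq (build GRCm38.p6; the counts carry the build name mm9), from 250 bases before to 50 bases after each listed start, matched 41 of the 46 members; Asah1, Ctsb, Ctsh, M6pr and Npc1 had no entry. Each motif searched reads the same on both strands, and each longer one contains the shorter. CACGTG was present in 14 of 41 members (34.1%), against 8.09% of all 27025 genes with a promoter and 11.5% of the 10407 tested ones. TCACGTGA was present in 5 members (12.2%), Ctsa, Ctsd, Gla, Cln3 and Mcoln1, against 1.12% and 2.1%, and the full CLEAR element in 1 member, Cln3 (2.44%), against 0.37% and 0.769%. The sequences below are those of the 5 members with TCACGTGA, of Lamp1, which has 4 copies of CACGTG, and of Naglu and Sgsh, which carry CACGTG and had large WT falls. Each is read 5′ to 3′ on the gene's strand and ends before the start site, with capitals marking, at each site, the longest of the motifs found there.
Mcoln1 (chr8:3500436-3500492, plus strand): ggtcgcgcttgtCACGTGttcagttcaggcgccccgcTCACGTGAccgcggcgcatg
Ctsa (chr2:164833748-164833772, plus strand): atgagcaaactgTCACGTGAtgcag
Gla (chrX:134601181-134601245, minus strand): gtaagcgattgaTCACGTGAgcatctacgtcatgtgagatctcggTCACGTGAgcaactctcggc
Ctsd (chr7:142387907-142387938, minus strand): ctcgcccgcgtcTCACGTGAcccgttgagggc
Cln3 (chr7:126583338-126583397, minus strand): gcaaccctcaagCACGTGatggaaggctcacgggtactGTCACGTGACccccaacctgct
Lamp1 (chr8:13159088-13159160, plus strand): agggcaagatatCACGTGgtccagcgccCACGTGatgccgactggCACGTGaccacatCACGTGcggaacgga
Naglu (chr11:101070009-101070038, plus strand): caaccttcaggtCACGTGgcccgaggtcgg
Sgsh (chr11:119355522-119355551, minus strand): gggcctgccgtgCACGTGaccgtggggagc
Of the 14 members with CACGTG, 9 rose and 3 fell in KO-labelled cells (median log2 fold change 0.7) and 8 rose and 4 fell in WT cells (median 0.7). Of the 26 tested members with a promoter but without CACGTG, 16 rose and 7 fell in KO-labelled cells (median 0.36) and 13 rose and 12 fell in WT cells (median 0.065). Members with TCACGTGA ran from 0.14 to 2.06 in KO-labelled and from 0.16 to 2.2 in WT cells, of which 4 of 5 rose in each. Of the 35 tested members with a promoter but without TCACGTGA, 21 rose and 10 fell in KO-labelled cells, and 17 rose and 16 fell in WT cells. Of all genes tested, 39.4% rose and 40.3% fell in KO-labelled cells, and 36.7% rose and 44.8% fell in WT cells. Responses of all tested genes with CACGTG were not computed. These are descriptions of letters in a window, with no test. Neu1, with the largest rise, held no CACGTG in its window. Ctsa, Ctsd, Gla and Mcoln1, which hold it, rose in both genotypes. Naglu, which also holds it, rose in KO-labelled cells (0.99) and fell in WT cells (-1.79). Sgsh, another that holds it, fell in both (-0.25 in KO-labelled and -2.76 in WT cells). Neu1, Naglu and Sgsh are named for their responses, and the part of the motif in any response was not tested.

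Other genes of the lysosome were listed for comparison: 98 further genes in the table, of which 92 were tested. In KO-labelled cells 55 rose (59.8%, against 39.4% of all genes tested) and 22 fell (23.9%, against 40.3%), with a median of 0.36. In WT cells 48 rose (52.2%, against 36.7%) and 34 fell (37%, against 44.8%), with a median of 0.19. Among 34 other hydrolases and cofactors 21 rose (61.8%) and 9 fell (26.5%) in KO-labelled cells. In WT cells 14 of them rose (41.2%) and 17 fell (50%), near the shares of all genes. Among 35 other membrane proteins and transporters 21 rose (60%) and 6 fell (17.1%) in KO-labelled cells, and 20 rose (57.1%) and 11 fell (31.4%) in WT cells. Dpp7, a dipeptidyl peptidase of lysosomes and vesicles, was at 129 and 122 CPM in starved KO-labelled libraries, against 25.3 and 23.3 CPM in fed ones, and at 552 and 547 CPM in starved WT libraries, against 28.1 and 28.3 CPM in fed ones. Scpep1, a serine carboxypeptidase, rose by 1.94 ± 0.029 in KO-labelled and 2.08 ± 0.03 in WT cells. Mfsd1 and Tmem192, lysosomal membrane proteins, rose by 1.37 ± 0.034 and 1.92 ± 0.054 in KO-labelled and 2.51 ± 0.037 and 2.08 ± 0.056 in WT cells. Cd68, a membrane protein best known from macrophages, was at 40.9 and 40.7 CPM in starved KO-labelled libraries, against 3.63 and 3.36 CPM in fed ones, and at 3.47 and 3.94 CPM in starved WT libraries, against 2.27 and 1.96 CPM in fed ones, and its rise was larger in KO-labelled cells (3.54 ± 0.099 in KO-labelled and 0.81 ± 0.15 in WT cells, with a difference of 2.73 ± 0.19). Csf1r, another macrophage marker, was at 6.03 and 6.42 CPM in the starved KO-labelled libraries and at most 1.82 CPM in the others, while Ptprc was at 0. The part of other cells in the Cd68 value was not tested. Siae, a sialic acid esterase, fell in both genotypes (-1.68 ± 0.097 in KO-labelled and -2.36 ± 0.14 in WT cells), as did Gm2a, the GM2 ganglioside activator (-1.43 ± 0.054 in KO-labelled and -1.71 ± 0.077 in WT cells).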

How the data were processed

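The deposited table holds raw counts as whole numbers, with 31055 RefSeq transcripts for 23366 symbols. TopHat2 (2.0.9), bedtools and mm9 are named, with no role, in the submitters' processing notes. Strand use and handling of multi-mapped reads: not given in the sources used here. Of the columns, 4 matched no labelled sample and were not used. Of several transcripts of 1 gene, which largely repeat the same reads, the one with the most counts was kept.

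The test was the quasi-likelihood F test of edgeR 4.0.16 (R 4.3.3; TMM, filterByExpr, 1 coefficient per group over 8 libraries, 4 residual degrees of freedom), with Benjamini-Hochberg adjustment over 14418 genes and a threshold of 0.05. Log2 fold changes are given ± SE, computed as the absolute fold change over the square root of F. CPM divide counts by the library size after TMM; CPM per kb used GENCODE M21 transcript lengths matched for all 46 members. A count of 3 was 0.0486 to 0.0921 CPM. Replicates of every group differed beyond counting error (chi-square per degree of freedom 3.37 to 6.21). Exons of 11 members overlap those of another protein-coding gene (Cln3, Ctsa, Ctsb, Ctsd, Ctsz, Glb1, Idua, Lamp1, Npc1, Ppt1 and Sgsh), by the annotation of GRCm38. The test was checked on simulated counts with few genes changed, in starved WT libraries only. That check does not cover scaling in data where most genes are called. Alternatives were DESeq2 1.42.0 (test and size factors), library totals, other filters, summed isoforms, fewer groups, a replicate block and leaving out each library. Members and lists were chosen with earlier results of these data known. Full values are given for the members with the largest called changes in each class and comparison, for those called in opposite directions and for the most abundant; the 4 other lysosome genes with the largest called rises and falls are likewise the pool for those named.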

Additional observations from a re-analysis of the deposited data

Results flagged for a closer look

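In 37 of the 45 tested members the starvation response differed between KO-labelled and WT cells by edgeR's interaction test at an adjusted p under 0.05, where 64.5% of all genes tested did. Values are the log2 response of KO-labelled cells minus that of WT cells. Groups of 2 libraries are too small for a check of single outlying samples.

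Proteases with a higher response in KO-labelled cells were Ctsk (3.12), Ctso (2.21), Ctsh (1.00), Ctsf (0.56), Ctsz (0.33). Those with a lower response were Ctsa (-0.88), Ctsb (-0.62), Tpp1 (-0.61), Ctsl (-0.40), Lgmn (-0.29), Ctsd (-0.29). In starved WT libraries Ctsk had 3 and 2 counts and Ctso 8 and 4. Both passed the filter on low counts through groups other than starved WT, so their place in this list is no independent sign of a difference. Among glycosidases the response was higher for Naglu (2.78), Idua (1.08), Fuca1 (1.02), Glb1 (0.82), and lower for Hexa (-1.03), Gla (-1.01), Neu1 (-0.54), Galc (-0.35), Gusb (-0.27). Sulfatases were higher for Sgsh (2.51), Arsb (0.73), Arsa (0.41), and Ids was lower (-0.48). Lipid genes with a higher response were Lipa (1.94), Ppt1 (0.49), Smpd1 (0.48), Psap (0.16), and Npc2 was lower (-0.50). Of the membrane proteins, Lamp2 was higher (0.46), and lower ones were Npc1 (-1.04), Lamp1 (-0.82), Scarb2 (-0.81), Cd63 (-0.56). M6pr was higher (0.64), and Gnptab (-0.91) and Grn (-0.72) were lower. The calls of Ctsf and Psap were lost with DESeq2 size factors (0.47 and 0.065) and without starved WT replicate 1 (0.14 and 0.029). Psap was also not called without starved WT replicate 2 (0.04). Ctsf was also not called without fed WT replicate 1 (0.60) or 2 (0.54), fed KO-labelled replicate 1 (0.57) or 2 (0.57), or starved KO-labelled replicate 2 (0.50). With library totals the calls of Gusb (-0.068), Galc (-0.15) and Lgmn (-0.093) were lost.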

How the results depend on the processing

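The counts of members called higher and lower in each comparison stayed within 1.5 times their main value under every alternative run. Of 225 gene values, 197 were called, and 167 of these kept their direction and call throughout. Library totals changed the most calls. They turned the sign of Ctsz (-0.22), Galc (-0.16) and Lgmn (-0.25) in WT starvation, of Arsb (-0.20), Hexa (-0.0031) and Scarb2 (-0.018) in KO-labelled starvation, of Glb1 between fed genotypes (0.0075), of Cd63 (0.077), Ctns (0.27), Gla (0.016), Lgmn (0.30) and Tpp1 (0.30) between starved genotypes, and of Asah1 in the difference of responses (0.13). Summed isoforms turned Lamp2 in WT starvation (0.031). Leaving out 1 library turned the sign of a called value or gave a call of the other sign for Lamp2 (-0.12 to 0.019) and M6pr (-0.042 to 0.093) in WT starvation and for Gaa in the difference of responses (-0.17 to 0.081), each by leaving out starved WT replicate 1 (0.019, 0.093 and -0.17). The lower level of Glb1 in fed KO-labelled cells (-0.11) was not called under 15 of 16 alternatives, and that of Ctsc (-1.78) was not called without fed WT replicate 1 (-1.12) or fed KO-labelled replicate 2 (-1.23). Without fed KO-labelled replicate 1, Sgsh in KO-labelled starvation was not called (-0.24).

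Same-numbered libraries showed no shared deviation, with correlations of -0.013 to 0.014 across genes. Such values cannot show whether libraries of the same number were cultured or prepared together, which the labels do not say. With a replicate block, 29 members rose and 10 fell in KO-labelled starvation, 24 and 17 in WT starvation, 31 were higher and 8 lower between fed genotypes, 27 and 13 between starved ones, and 18 and 19 in the difference of responses. Genes with few counts (Ctsc, Ctsk, Ctso and Ctss) are limited by depth.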

Other observations

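Lamp2 was the only member with several transcript rows whose rows differed by more than a few percent. Its messages are known to be spliced to alternative last exons that give membrane-spanning tails of different function. Row NM_001017959 had a count that was 89.2 and 89.6% of that of row NM_010685 in starved KO-labelled libraries, against 76.1 and 73.5% in fed ones. In WT it was 79.5 and 75.6% in starved libraries, against 62.9 and 62.6% in fed ones. The ratio of the 2 rows, which repeat many of the same reads, was thus higher in starved than in fed libraries of each genotype, and higher in KO-labelled than in WT libraries of the same medium, with no overlap between those groups. No test was made of these ratios.

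Cst3, the secreted inhibitor of cysteine cathepsins, was at 313 and 322 CPM in starved KO-labelled libraries, against 444 and 450.3 CPM in fed ones, and at 154 and 149.9 CPM in starved WT libraries, against 156 and 154 CPM in fed ones, with -0.49 ± 0.03 in KO-labelled and -0.028 ± 0.032 in WT cells. It fell on starvation in KO-labelled cells and did not pass in WT cells. The cysteine cathepsins went both ways. Ctsb, Ctsl and Ctsz rose in both genotypes, although Ctsz in WT became -0.22 with library totals. Ctsf, Ctsh, Ctsk and Ctso fell in WT cells, although the Ctsf call was lost without starved WT replicate 1 (-0.15). In starved WT libraries Ctsk had 3 and 2 counts and Ctso 8 and 4. In KO-labelled cells Ctsk rose, Ctso fell, and Ctsf and Ctsh did not pass. That rise of Ctsk was not called with library totals (0.35). Ctsc did not pass in either genotype. A link between Cst3 and these genes was not tested.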
